A study of Mus musculus with 9 samples.

Results

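Broad open domains of chromatin were defined in LSK cells, the lineage-negative, Sca-1-positive and Kit-positive fraction of mouse bone marrow in which haematopoietic stem cells and early progenitors reside. In 8 ATAC-seq peak lists, peaks that overlapped by 1 bp or more were joined on the 19 autosomes, and a merged region counted as a broad domain when it was at least 2000 bp wide and held a peak in all 8 lists. This gave 192 domains among 73670 merged regions, or 0.261% of them. Of the 18667 regions with a peak in all 8 lists, the domains were 1.03%. The domains were chosen by measured values, namely their width and their presence in every list, so both are given here as description only.

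ATAC-seq uses the Tn5 transposase, which inserts sequencing adapters into accessible DNA. The groups were WT, Bcat_KO (β-catenin, Ctnnb1), HOXA9_KO (Hoxa9) and PRMT1_KO (Prmt1), with 2 libraries each, and a dKO of β-catenin and Hoxa9 with 1 library that played no part in choosing the domains. The series addresses DNA replication and stem cell function under the loss of β-catenin or Hoxa9, and how far Prmt1 is needed. All groups were the same sorted cell type, 50000 cells per library. Mutants are KO in the sample titles, whose names are kept, and knockdown in the genotype tags. Neither the driver of the deletions nor the age of the mice is given. Primary transplanted mice are named for Prmt1KO alone. It is not stated if replicate libraries are different mice. The p-values therefore measure the spread between these libraries, which may be technical.

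An ATAC-seq peak marks DNA from which nucleosomes have been displaced, most often a promoter or an enhancer. Most open promoters are flanked by positioned nucleosomes, so a stretch of open DNA several nucleosomes long is unusual. Such stretches are commonly found over CpG islands, the CG-rich and mostly unmethylated sequence at the promoters of housekeeping and developmental genes. The summit of a peak is the position of its highest signal.

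The sequences just upstream of 6 gene starts at broad domains show how differently such windows are composed. Syncrip, Btg3, Sox12 and Hivep2 stand for CG-rich windows, and the histone genes H1f2 and H2ac20 for windows with fewer CG pairs. They do not give the composition of whole domains, and part of the H1f2 window lies outside its domain. A second start in the Btg3 domain had 57.7% GC and 9 CG pairs (250 bases before to 50 after that start). Each sequence holds the 250 bases before the gene start, 5′ to 3′ on the strand of the gene, from the RefSeq promoter table of build GRCm38.p6, and the capitals mark CG pairs. Syncrip, Btg3 and H2ac20 are on the minus strand of chromosomes 9, 16 and 3, Sox12 is on the minus strand of chromosome 2, and H1f2 and Hivep2 are on the plus strand of chromosomes 13 and 10.
Syncrip: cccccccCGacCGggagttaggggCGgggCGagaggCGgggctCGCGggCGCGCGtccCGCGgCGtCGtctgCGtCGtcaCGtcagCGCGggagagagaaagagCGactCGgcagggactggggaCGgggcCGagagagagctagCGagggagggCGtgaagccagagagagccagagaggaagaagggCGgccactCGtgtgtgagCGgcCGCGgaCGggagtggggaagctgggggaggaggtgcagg
Btg3: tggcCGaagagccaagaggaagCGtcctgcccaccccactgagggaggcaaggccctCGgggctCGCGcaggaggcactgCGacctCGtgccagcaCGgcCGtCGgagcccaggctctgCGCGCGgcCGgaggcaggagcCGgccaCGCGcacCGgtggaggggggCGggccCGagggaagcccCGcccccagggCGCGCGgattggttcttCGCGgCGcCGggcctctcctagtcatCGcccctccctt
Sox12: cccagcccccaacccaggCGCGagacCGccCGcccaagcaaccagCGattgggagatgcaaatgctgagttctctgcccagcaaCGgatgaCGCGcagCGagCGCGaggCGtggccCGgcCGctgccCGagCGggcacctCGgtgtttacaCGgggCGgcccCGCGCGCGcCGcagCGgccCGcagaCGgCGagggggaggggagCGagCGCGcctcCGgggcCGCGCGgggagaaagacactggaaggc
Hivep2: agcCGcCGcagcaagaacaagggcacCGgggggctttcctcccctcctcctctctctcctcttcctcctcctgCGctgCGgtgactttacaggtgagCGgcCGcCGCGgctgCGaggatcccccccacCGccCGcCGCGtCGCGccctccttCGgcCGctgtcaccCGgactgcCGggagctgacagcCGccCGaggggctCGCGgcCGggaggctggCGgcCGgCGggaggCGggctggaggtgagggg
H1f2: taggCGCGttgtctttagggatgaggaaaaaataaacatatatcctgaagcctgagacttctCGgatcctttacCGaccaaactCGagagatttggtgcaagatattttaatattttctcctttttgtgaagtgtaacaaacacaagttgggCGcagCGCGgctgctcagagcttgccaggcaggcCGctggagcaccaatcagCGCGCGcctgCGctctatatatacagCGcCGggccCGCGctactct
H2ac20: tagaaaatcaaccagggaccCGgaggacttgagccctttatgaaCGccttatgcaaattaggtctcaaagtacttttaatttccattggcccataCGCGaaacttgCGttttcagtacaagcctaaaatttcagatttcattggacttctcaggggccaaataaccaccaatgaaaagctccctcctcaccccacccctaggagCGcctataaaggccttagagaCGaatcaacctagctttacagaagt
The windows of Syncrip, Btg3, Sox12 and Hivep2 held 31, 29, 35 and 29 CG pairs at a GC content of 72.8%, 75.2%, 74.4% and 75.2%. The window of H1f2 held 17 CG pairs at 50.4% GC, and that of H2ac20 held 7 at 44.8%. H2ac20 was the 1 gene of the 6 with the letters TATAAA in this window on either strand.

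Across all matched starts, the promoters at broad domains were GC-rich. Of the domains' genes, 170 had a window in the RefSeq table, with 212 starts between them. Each window spans 250 bases before to 50 after the start. The median GC content was 67.0% at domains, 62.7% at the 10803 starts of narrower regions in all 8 lists, and 48.7% at the 20381 starts without such a region. The median number of CG pairs was 28, 23 and 4 in the same order, and the median observed over expected CG ratio was 0.844, 0.806 and 0.236. The range at domains was wide, from 37.3% to 88.0% GC.

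Short motifs divided the same windows in several ways, each searched on both strands. The letters GGGCGG, the core of an Sp1-type GC box, occurred in 70.8% of the domain windows, 69.5% of the windows at narrower regions and 36.0% of all windows. CCAAT occurred in 27.8%, 38.3% and 37.3%. GGAAGT, a core recognised by ETS factors, occurred in 13.2%, 29.5% and 23.9%. TATAAA occurred in 8.02%, 5.77% and 13.6%, and the AP-1 letters TGACTCA in 3.30%, 2.87% and 5.26%. The domain windows thus held GGAAGT and CCAAT in a lower share than the windows of narrower regions and GGGCGG in nearly the same share. A match is a description of letters and not a bound site.

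The domains ranged from 2002 to 7024 bp with a median of 2217 bp, against 863 bp for all regions shared by the 8 lists, and 456769 bp of the genome lay in them. Of the 192, 35 reached 2500 bp and 15 reached 3000 bp. The threshold fell in a continuous distribution. Just inside it lay Btn1a1 (2002 bp), E2f8 (2003 bp), Acss1 (2005 bp) and 5730460C07Rik (2006 bp), and just outside lay the regions of Ift80 (1999 bp), Rrbp1 (1999 bp), Cnksr3 (1995 bp) and H2bc6 (1994 bp). Only 4 further autosomal regions were at least 2000 bp wide without a peak in all 8 lists. The name broad applied to the merged region more than to single peaks. In 12 domains every list held a single peak of at least 2000 bp, in 91 some lists did, and in 89 none did, so those 89 were joined from shorter peaks that lay at shifted positions in different libraries.

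The widest domains lay far from genes, at non-coding loci and at promoters of regulators. Each is placed by GRCm38 coordinates. The widest of all lay on chromosome 9 from 3012138 to 3019161 (7024 bp), with another of 4820 bp from 3000002 to 3004821. Both are intergenic, near the start of the assembled chromosome, and lay 180652 and 194992 bp from the nearest gene start, that of 4930433N12Rik. A domain of 5740 bp on chromosome 17 (39843047 to 39848786) covered the ribosomal RNA repeat near AY036118, and one of 3747 bp on chromosome 14 (19415722 to 19419468) was intergenic, nearest to Gm41101.

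Among annotated starts, Gm26802 had the widest domain (4042 bp, chromosome 7, 19300479 to 19304520). The intergenic domain nearest to 9230019H11Rik followed (3772 bp, chromosome 10, 3111373 to 3115144). Next came Cdk6, the G1 cell cycle kinase with a known part in the exit of stem cells from quiescence (3606 bp, chromosome 5, 3341140 to 3344745), and Hivep2, a zinc finger transcription factor gene (3552 bp, chromosome 10, 13964363 to 13967914). The domains at LOC108167694 (3302 bp), at Dach1, a transcriptional corepressor gene (3084 bp), at Tent5a, a non-canonical poly(A) polymerase gene (3074 bp), and at LOC102634078 (3061 bp) completed the 12 widest. Width and peak strength were not the same ordering: Cdk6 reached a fold over local background of 5.16 and 5.42 in the WT libraries, and the Gm41101 domain reached 21.0 and 22.6.

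Most domains lay at a gene start. A start lay in or within 1 kb of 165 of the 192 domains (85.9%), against 56.8% of the 18475 narrower regions in all 8 lists. For genes without an entry in the promoter table, either end counts as a start in these shares. With the starts of the table alone the share of domains was lower, as given in the closing part on processing. That share was not computed for the narrower regions. Of the rest, 10 domains (5.21%) lay in a gene body and 17 (8.85%) were intergenic, against 26.1% and 17.1% of the narrower regions. A wider region has more room to touch a start, so the position of the strongest summit was also taken, and it lay within 1 kb of a start in 71.4% of the domains and 55.0% of the narrower regions. At least 2 starts lay within reach of 56 domains (29.2%, against 13.5% of narrower regions), and in 38 the starts pointed in both directions. The genes at these starts were 174 protein-coding genes and 54 lncRNAs. No gene held more than 1 domain in its body.

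The share at a gene start rose with width and then fell. It was 15.6% for regions below 500 bp, 48.4% from 500 bp, 78.9% from 1000 bp, 85.9% from 1500 bp, 89.2% from 2000 bp and 71.4% from 2500 bp. The 8 intergenic domains among the 35 of at least 2500 bp were 22.9% of them, against 5.73% among the 157 narrower ones. The intergenic domains named above were among them.

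**Figure D1:**
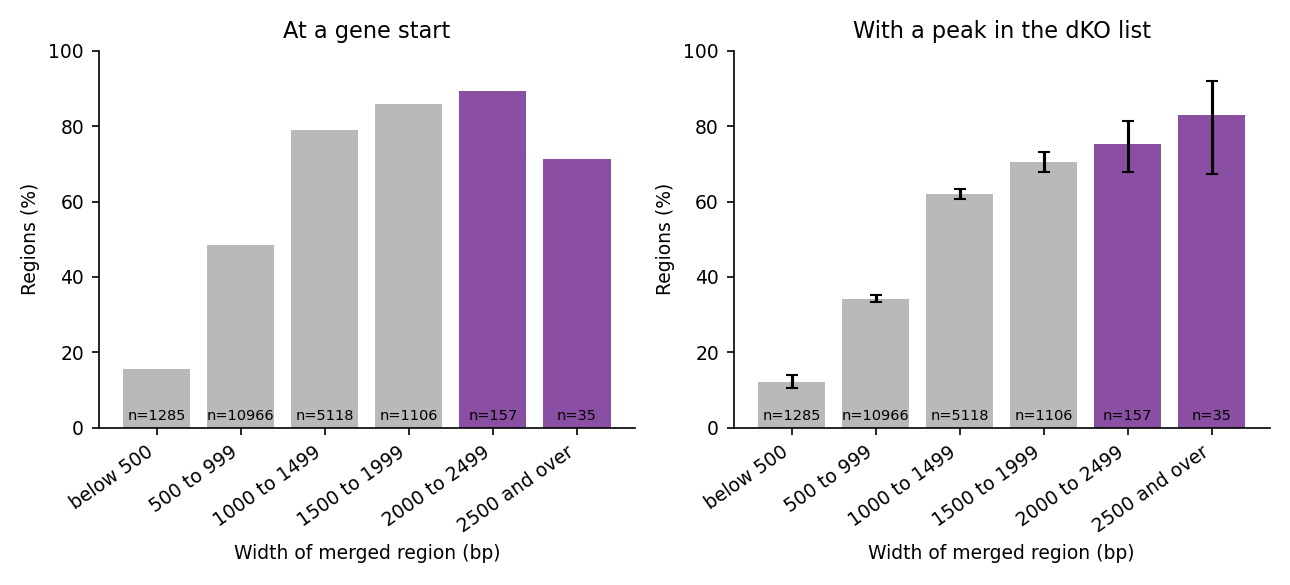
Share of merged regions with a peak in all 8 lists, by width class in bp, that lay within 1 kb of a gene start (left) and that also held a peak in the dKO list (right, with 95% Wilson intervals that cover counting error only); n is the number of regions, grey bars are narrower regions and purple bars the broad domains. The left bars reach 89.2% from 2000 bp and drop to 71.4% from 2500 bp, and the right bars run from 12.1% below 500 bp to 82.9% from 2500 bp. Either end of a gene without an entry in the promoter table counts as a gene start.

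Few genes of the lists compared here lay at these domains. Over all genes with a start near a region shared by the 8 lists, 228 of 12655 (1.8%) had a domain. Of the stem and progenitor regulators, 1 of 23 did (Cdk6), of the immediate early and activation genes 1 of 23 (Cxcr4, the chemokine receptor that holds stem cells in the marrow), and of the ribosomal protein genes 1 of 50 (Rpl7, which shares its domain with Rdh10). No domain lay at the start of 33 DNA replication genes, 13 hosts of non-coding RNAs, 12 genes of the Wnt and β-catenin pathway, 8 arginine methyltransferase genes or 3 genes of the stem cell factor heptad, all with a shared region. Lineage lists had 1 lymphoid, 4 erythroid, 2 megakaryocytic and 2 stromal or endothelial genes with a shared region and no domain, and neither the Hoxa cluster nor the granulocyte list had a shared region. These lists are too small to set their shares against the 1.8%.

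Some domains at genes with known parts in blood cells were picked out after their values were seen. Dnmt3a, a DNA methyltransferase that restrains stem cell self-renewal, had a domain of 2101 bp with exactly 2 summits in all 8 libraries. Rbpj, the DNA-binding factor of Notch signalling, had a domain of 2407 bp. Wnt pathway genes outside the list also had domains, namely the receptors Fzd1 (2270 bp) and Fzd8 (2652 bp) and the Wnt secretion factor Wls (2762 bp). Mir17hg, the host of the miR-17 cluster, had a domain of 2410 bp that ended 1818 bp from its start and ranked between the 79.6th and 95.4th percentile.

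The number of summits varied within groups as well as between them. The lists hold 1 summit per peak, so the number of summits of a domain is its number of separate peaks. The mean per domain was 1.35 and 1.52 in the WT libraries, 1.82 and 1.93 in Bcat_KO, 1.5 and 1.79 in HOXA9_KO, and 1.49 and 1.86 in PRMT1_KO. Both Bcat_KO libraries lay above both WT libraries, whereas 1 library each of HOXA9_KO and PRMT1_KO lay below the higher WT library. The group means were 1.44 ± 0.120 for WT, 1.88 ± 0.0778 for Bcat_KO, 1.65 ± 0.205 for HOXA9_KO and 1.68 ± 0.262 for PRMT1_KO (SD, n = 2 for each), and no test was made. In narrower regions, which have less room for separate peaks, the mean stayed between 1.02 and 1.07 in every library.

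Within each group, the library with more summits per domain had the shorter median longest peak, and it was replicate 2 in every group. Summits are separate peaks here, so both measures come from the same peaks, and the cause of this relation was not tested. Across groups the order did not hold. The second WT library had a shorter median longest peak than the first Bcat_KO library, yet more domains with a single summit. A single summit was found in 130 and 102 domains in the WT libraries, 65 and 54 in Bcat_KO, 104 and 68 in HOXA9_KO, and 110 and 65 in PRMT1_KO. The median longest peak in a domain was 1679 and 1066.5 bp in the WT libraries, 1093 and 1054 bp in Bcat_KO, 1470.5 and 1139 bp in HOXA9_KO, and 1777.5 and 1103.5 bp in PRMT1_KO. The libraries with long peaks, replicate 1 of WT, HOXA9_KO and PRMT1_KO, were those with the most single-summit domains within their group. Peaks covered between 63.1% and 83.5% of a domain at the median, lowest in the second WT library, whose list was also the shortest with 28325 peaks. The other lists held 35581 to 45460 peaks, and the part of list length in the number of summits was not tested.

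**Figure D2:**
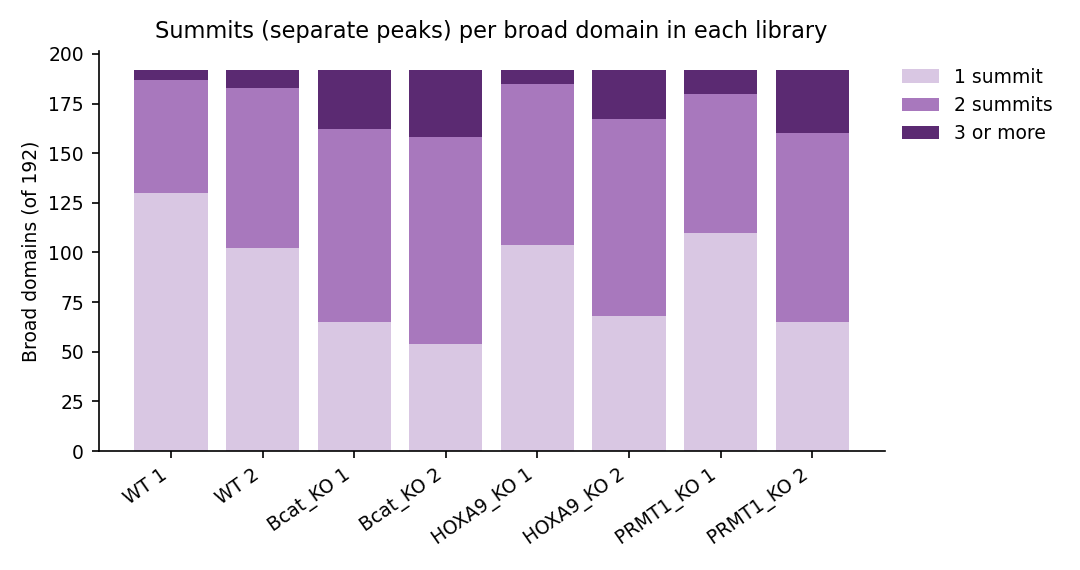
Number of the 192 broad domains with 1, 2, and 3 or more summits (separate peaks) in each of the 8 libraries. The light segment, domains with 1 summit, runs from 54 in the second Bcat_KO library to 130 in the first WT library.

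Single domains kept their summits to different degrees. In 172 of 192 the number varied between libraries, 17 had 1 summit in all 8 libraries, 14 had at least 2 in all 8, and the highest number was 5. Summits that lay within 150 bp of each other in at least 4 libraries were counted as recurrent. There were 85 domains with 1 recurrent summit, 88 with 2, 16 with 3 and 2 with 4, at Ifngr2 and Gm42266, and 1 with none. The position of the strongest summit varied with a median SD of 90.2 bp over the 8 libraries and by more than 300 bp in 59 domains.

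The 8 domains with most summits all covered a gene start or, at LOC102634078, a gene end used in place of a start. By median over the libraries they were Cdk6, Hivep2, Sox12 (a SoxC transcription factor gene), Cnot6l (a deadenylase subunit gene), Six5 (a homeobox gene), L3mbtl3 (a chromatin reader gene), Ifngr2 (a subunit of the interferon gamma receptor) and LOC102634078. Hivep2 had 4 and 3 summits in the WT libraries, 3 and 4 in Bcat_KO, 1 and 3 in HOXA9_KO, and 3 and 3 in PRMT1_KO. The single summit of the first HOXA9_KO library came with 1 peak of 3277 bp over nearly the whole domain, where the longest peak of the other 7 libraries was 786 to 991 bp. Sox12 had 3 and 2 summits in the WT libraries, 3 and 3 in Bcat_KO, 3 and 2 in HOXA9_KO, and 4 and 4 in PRMT1_KO. The strongest summit kept its place at both genes, with an SD over the 8 libraries of 26.3 bp at Hivep2 and 43.2 bp at Sox12. The gene start of Hivep2, whose window of 29 CG pairs is printed above, lay in the weakly covered middle of its domain.

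The domain nearest to Zfp825 had the opposite form. It lay 34674 bp from that start, had 1 peak of 2005 to 2055 bp in every list, and was the 1 domain with no recurrent summit: its strongest position moved with an SD of 393 bp. The maps of peaks at Hivep2, Sox12, Zfp825 and Jun show these forms side by side.

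**Figure D3:**
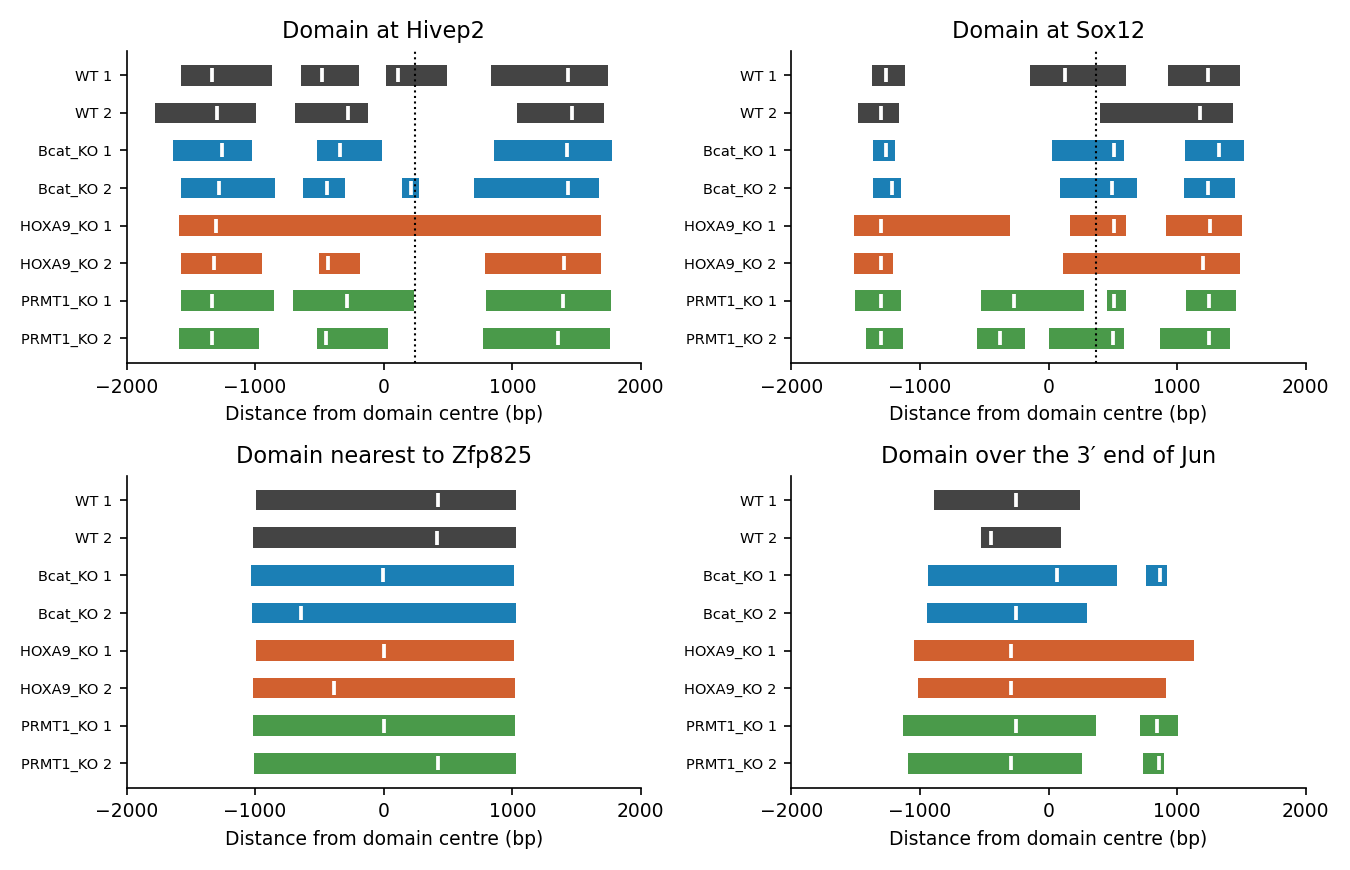
Peaks (bars) and summits (white ticks) in the 8 libraries at 4 broad domains, against distance from the domain centre in bp; dotted lines mark gene starts. Hivep2 and Sox12 are split into 1 to 4 peaks per library, the domain nearest to Zfp825 is 1 peak with a shifting summit, and the Jun domain is shortest in the second WT library.

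Peak strength within a library was compared by rank. For each region the best −log10 p of its peaks, a value the authors deposited, was ranked among the 18667 regions and expressed as a percentile, with 100 for the strongest. The median percentile of the domains was 68.3 and 63.6 in the WT libraries, 63.4 and 61.7 in Bcat_KO, 63.0 and 62.8 in HOXA9_KO, and 62.8 and 64.6 in PRMT1_KO. The domains were therefore moderately strong in each library. Both WT libraries lay above both Bcat_KO and both HOXA9_KO libraries, and WT and PRMT1_KO overlapped. Over the 8 libraries 14 domains were in the top 10% in every library, 89 were above the median in every library, 42 were below it in every library, and 0 were in the bottom 10% throughout. The median range of a domain's percentile over the 8 libraries was 22.5 points, against 28.7 for narrower regions.

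Fold over background gave another order. The median fold of the domains was 7.37 and 7.07 in WT and 8.02 to 8.99 in the 6 mutant libraries, and over all libraries the median was 8.05 for domains and 9.02 for narrower regions. Domains thus ranked above narrower regions by p and below them by fold. Position divided them too: the median percentile was 62.0 for the 165 at gene starts, 27.9 for the 10 in gene bodies and 85.7 for the 17 intergenic ones.

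The strongest domains were mostly intergenic. The 10 highest by median percentile were the intergenic domain nearest to Gm41101 and 4 sites at the start of chromosome 9 (99.9 or 100), 2700054A10Rik (99.9), the domain nearest to Zfp825 (99.5), a domain in a gene body nearest to the start of Ccl28 (98.2), the ribosomal RNA repeat near AY036118 (98.1) and Ppp3ca, the gene of a calcineurin catalytic subunit (96.8). The ribosomal repeat reached this percentile with a fold of only 2.39 and 2.43 in WT and at most 3.07 in any library. In all, 8 of the 192 domains had no gene start or end within 50 kb or lay at the ribosomal repeat. No repeat annotation was used and no repeat filter is recorded in the sources used here, so the part of repeated sequence in these ranks was not tested.

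Most of the weakest domains named here lay at gene starts, as did 85.9% of all 192 domains. Btn1a1, a butyrophilin gene, had percentiles from 0.828 to 14.2 over the 8 libraries with longest peaks of 164 to 626 bp. Cxxc5, a zinc finger CXXC gene, ranged from 0.731 to 16.2. An intergenic domain nearest to Gm33912 had a median percentile of 4.6, and Fhdc1, Erbb4, Gas1, Tpbg and Zic5 had medians between 5.41 and 8.59. At Btn1a1 the strongest summit moved with an SD of 658 bp over the libraries, and at Cxxc5 with 841 bp.

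Rank differences between groups were tested with limma on normal scores, the percentiles turned into standard normal quantiles, over all 18667 regions and with all 8 libraries in 1 fit. A domain was called at a Benjamini-Hochberg adjusted p under 0.05. All 3 comparisons with WT use the same 2 WT libraries, so their values are given side by side and not as independent results. WT and mutant libraries also differed otherwise: both WT lists had no peak on chromosome Y below 90 Mb, the 6 mutant lists had 12 to 16, and the WT lists were the shortest. Sex, list length and genotype cannot be told apart in comparisons with WT.

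In Bcat_KO against WT, 7 of 192 domains were called (3.65%), near the 3.44% of all regions called in that comparison. Higher in Bcat_KO were 6, at the 3′ sides of Malat1 and Jun, at H1f2, H2ac20 and Fzd8 and nearest to Zfp825, and lower was 1, at Syncrip, against 2.5% and 0.943% of all regions. With the deposited −log10 p on a log2 scale in place of ranks, 18 domains were called (9.38%, against 7.26% of all regions), 5 higher and 13 lower. With ranks by fold enrichment, or without modelling the spread on rank, none was called. In HOXA9_KO against WT, 7 were called (3.65%), 5 higher and 2 lower, against 5.64%, 3.33% and 2.31% of all regions. On the log2 scale they were 18 (9.38%, against 8.98% of all regions), 5 higher and 13 lower. By fold none was called, and without modelling the spread on rank 3 were (1.56%, against 1.01%), with H3f3b and Fzd8 among them. In PRMT1_KO against WT, 2 were called (1.04%), both higher, against 1.62% of all regions in either direction, 1.27% higher and 0.348% lower. On the log2 scale 9 were called (4.69%, against 3.84% of all regions), 2 higher and 7 lower, and by fold or without modelling the spread none.

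Single libraries mattered for these counts. In Bcat_KO against WT, 4 domains were called without WT replicate 1 (2.08%, against 2.07% of all regions) and 3 without WT replicate 2 (1.56%, against 1.68%). Without Bcat_KO replicate 1 or replicate 2, 2 were called (1.04%, against 0.686% and 0.755%). In HOXA9_KO against WT, 3 were called without WT replicate 2 (1.56%, against 2.59% of all regions). Without HOXA9_KO replicate 1 or replicate 2, 2 were called (1.04%, against 1.51% and 1.44%). In PRMT1_KO against WT, 1 was called (0.521%) without any 1 Bcat_KO or HOXA9_KO replicate, against 1.24% to 1.48% of all regions. None was called without WT replicate 2, PRMT1_KO replicate 1 or PRMT1_KO replicate 2, against 0.954%, 0.155% and 0.118% of all regions. The domain at Malat1 was called in Bcat_KO and in HOXA9_KO against WT under every one of the 8 omissions. Against WT in Bcat_KO, the calls at Jun and nearest to Zfp825 were lost under 2 omissions, those at H1f2 and H2ac20 under 3, that at Syncrip under 7 and that at Fzd8 under all 8. In HOXA9_KO the call at Jun was lost under 1, those at H3f3b and Btg3 under 2, those at H1f2 and Larp1b under 3 and that at Fzd8 under 4.

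Malat1, the gene of an abundant nuclear long non-coding RNA, had its domain at the other end from its start. The domain (2023 bp, chromosome 19, 5793922 to 5795944) shared 255 bases with the gene and reached 1768 bases past its 3′ end. Its percentile was 29.8 and 1.95 in the WT libraries, 76.0 and 77.1 in Bcat_KO, 80.1 and 89.2 in HOXA9_KO, and 50.1 and 53.5 in PRMT1_KO. Every mutant library was above both WT libraries, and the WT libraries differed widely from each other. The fold over background was 5.28 and 3.50 in WT and 6.53 to 9.15 in the mutants. The difference in normal score from WT was 2.02 ± 0.335 (SE, limma adjusted p = 0.0016) in Bcat_KO, 2.34 ± 0.335 (adjusted p = 3.4e-04) in HOXA9_KO and 1.34 ± 0.335 (adjusted p = 0.038) in PRMT1_KO. Without WT replicate 2 these were 1.26, 1.57 and 0.58, and without WT replicate 1 the difference in PRMT1_KO was 2.11. The PRMT1_KO call was lost under 7 of the 8 omissions.

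The domain at Jun, a subunit of the AP-1 transcription factor, lay over the 3′ end of the gene as well. It spanned 2262 bp (chromosome 4, 95048116 to 95050377), shared 1342 bases with this single-exon gene and reached 920 bases past its end. Its percentile was 25.1 and 9.66 in the WT libraries, 57.7 and 76.4 in Bcat_KO, 62.6 and 84.9 in HOXA9_KO, and 32.8 and 34.1 in PRMT1_KO. The Bcat_KO and HOXA9_KO libraries lay clear of WT, and the PRMT1_KO libraries only just above it. The difference from WT was 1.44 ± 0.313 (SE, limma adjusted p = 0.0115) in Bcat_KO and 1.66 ± 0.313 (adjusted p = 0.00304) in HOXA9_KO, and the PRMT1_KO difference was not called.

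Another domain lay beyond the 3′ end of H3f3b, a gene of the replication-independent histone H3.3. It began 184 bases past the end of the gene and spanned 2969 bp (chromosome 11, 116018809 to 116021777). Its percentile was 4.13 and 2.11 in the WT libraries, 27.4 and 31.8 in Bcat_KO, 46.7 and 40.9 in HOXA9_KO, and 11.3 and 14.0 in PRMT1_KO. The 4 groups did not overlap, and HOXA9_KO was highest. The difference was called in HOXA9_KO alone, at 1.73 ± 0.390 (SE, limma adjusted p = 0.0103). None of the Malat1, Jun and H3f3b domains had a peak in the dKO list, which was short and from a single library. A dKO peak lay at 76.6% of all domains and at 44.1% of those with a median percentile below 25.

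Domains at replication-dependent histone genes were among those called. H1f2, which encodes a linker histone, had a domain of 2192 bp (chromosome 13, 23738706 to 23740897) over the gene and the last bases of the window printed above. Its percentile was 67.3 and 47.6 in the WT libraries, 85.4 and 85.7 in Bcat_KO, 87.7 and 87.9 in HOXA9_KO, and 79.8 and 85.1 in PRMT1_KO, so every mutant library was above both WT libraries. The difference was 0.87 ± 0.205 (SE, limma adjusted p = 0.0191) in Bcat_KO and 0.97 ± 0.205 (adjusted p = 0.00665) in HOXA9_KO. The domain at H2ac20 (2411 bp, chromosome 3, 96219258 to 96221668) also covered the start of H2ac21 and an end of H2bc21. Its percentile was 47.1 and 60.4 in the WT libraries, 81.2 and 83.6 in Bcat_KO, 71.7 and 73.0 in HOXA9_KO, and 68.6 and 69.1 in PRMT1_KO, again with no overlap with WT. The difference was called in Bcat_KO, at 0.84 ± 0.220 (SE, limma adjusted p = 0.0344). The near-identical copies of histone genes may share reads, so their peaks are less certain.

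The domain at Fzd8, the gene of a receptor for Wnt ligands, ranked lower in WT and PRMT1_KO than in Bcat_KO and HOXA9_KO. It spanned 2652 bp (chromosome 18, 9211810 to 9214461) over an end of the gene that was used in place of a start. Its percentile was 25.3 and 23.4 in the WT libraries, 56.8 and 68.2 in Bcat_KO, 65.1 and 70.3 in HOXA9_KO, and 22.8 and 27.2 in PRMT1_KO. WT and PRMT1_KO overlapped, and both lay below Bcat_KO and HOXA9_KO. The difference from WT was 1.02 ± 0.288 (SE, limma adjusted p = 0.048) in Bcat_KO and 1.15 ± 0.288 (adjusted p = 0.0185) in HOXA9_KO. The Bcat_KO call was lost under all 8 omissions of a library and the HOXA9_KO call under 4. Between PRMT1_KO and Bcat_KO the difference was not called.

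Among domains of very high rank, 3 more were called. Syncrip, the gene of the RNA-binding protein hnRNP Q, had a percentile of 98.8 and 97.3 in the WT libraries, 93.9 and 94.5 in Bcat_KO, 95.6 and 95.5 in HOXA9_KO, and 97.8 and 96.9 in PRMT1_KO. The Bcat_KO libraries were the lowest, with a difference from WT of −0.51 ± 0.143 (SE, limma adjusted p = 0.045). Larp1b, the gene of a La-related RNA-binding protein, stood at 97.3 and 98.1 in the WT libraries, 93.4 and 94.8 in Bcat_KO, then 91.0 and 92.9 in HOXA9_KO, and 94.1 in both PRMT1_KO libraries. HOXA9_KO was lowest, by −0.60 ± 0.147 from WT (SE, limma adjusted p = 0.0166). The domain nearest to Zfp825 stood at 99.0 and 98.9 in WT and from 99.0 to 99.8 in the mutants, with differences of 0.50 ± 0.112 in Bcat_KO (SE, limma adjusted p = 0.0133) and 0.46 ± 0.112 in PRMT1_KO (adjusted p = 0.0326, lost under 4 of the 8 omissions of 1 library each). By fold enrichment the PRMT1_KO difference at this domain turned to −0.03.

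**Figure D4:**
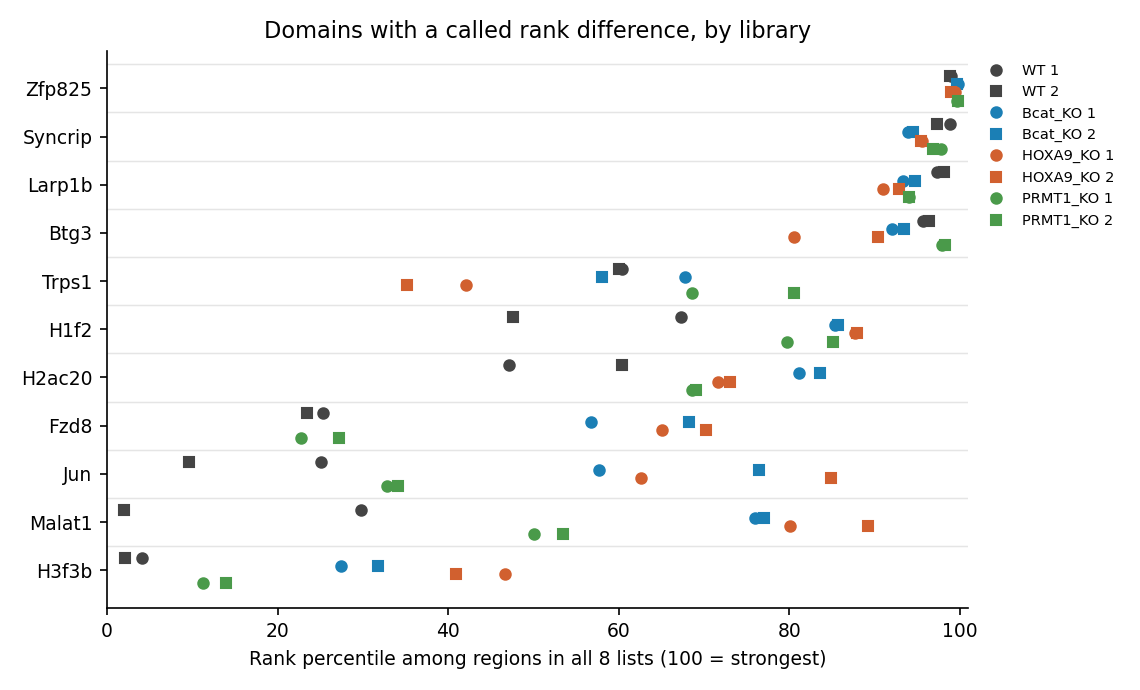
Rank percentile (100 = strongest of the 18667 regions in all 8 lists) of the 11 broad domains called in any comparison, with 1 point per library, circles for replicate 1 and squares for replicate 2. Domains are ordered by their mean in WT; at Malat1 and Jun the Bcat_KO and HOXA9_KO points lie far right of WT, and at Btg3 the HOXA9_KO points lie left of all others.

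Over all 192 domains, the mutants stood slightly lower than WT. The median difference in normal score from WT was −0.12 in Bcat_KO, −0.13 in HOXA9_KO and −0.09 in PRMT1_KO, where all regions had −0.02, −0.01 and −0.02. Both mutant libraries lay below both WT libraries in 63, 68 and 55 domains (32.8%, 35.4% and 28.6%), against 24.9%, 25.6% and 24.1% of all regions. Both lay above in 33, 30 and 33 domains (17.2%, 15.6% and 17.2%), against 23%, 24.2% and 22.8%. The shared WT libraries enter all 3 shifts, and the first WT library had the highest median percentile of the 8. Its list also held the most autosomal peaks of at least 2000 bp, 60 against 23 to 54 in the others. The domains were chosen by width, so the shifts are not independent of that choice, and its part in them was not tested. Above WT in mean score were 78, 72 and 79 of the 192 domains.

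**Figure D5:**
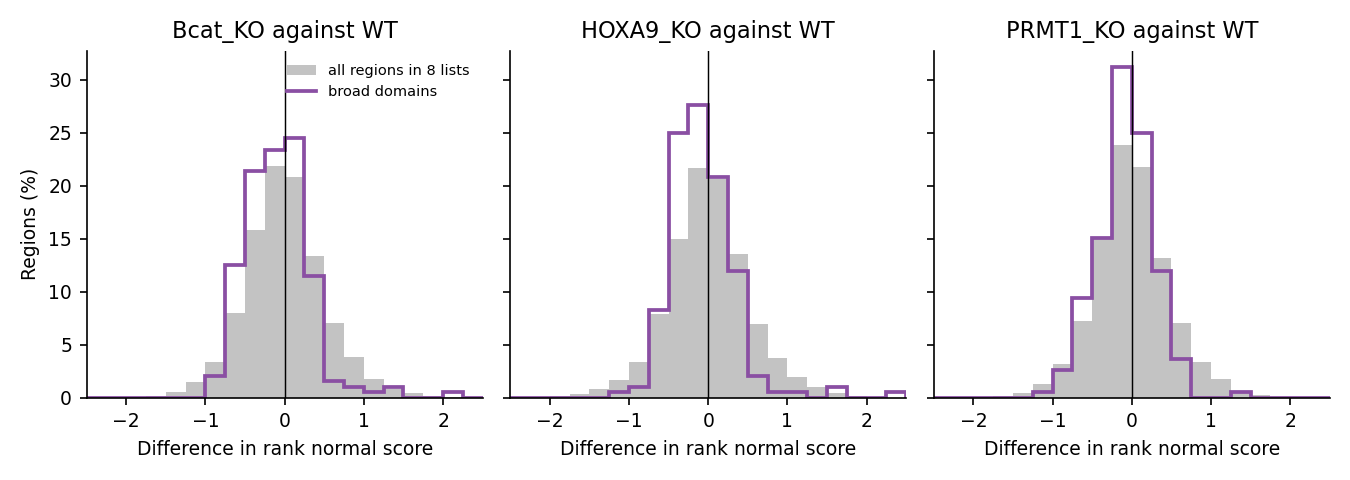
Distribution of the difference in normal score of rank from WT for the 192 broad domains (purple line) and all 18667 regions (grey), in % of regions per bin, for each single mutant. The purple line leans to the left of 0 in each panel, with medians of −0.12, −0.13 and −0.09, and a few domains lie beyond 1 on the right.

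Between mutants, few domains were called. In HOXA9_KO against PRMT1_KO, 3 of 192 were (1.56%), 1 higher and 2 lower in HOXA9_KO, against 3.05%, 0.911% and 2.14% of all regions. Without WT replicate 1 this count was 6 (3.12%, against 3.46% of all regions), and without WT replicate 2 it was 5 (2.6%, against 3.43%). Without any 1 HOXA9_KO or PRMT1_KO replicate it was 1 (0.521%, against 0.316% to 1.02%). Both HOXA9_KO libraries lay above both PRMT1_KO libraries in 33 domains (17.2%, against 24.9% of all regions) and below in 38 (19.8%, against 24.2%). By fold enrichment, or without modelling the spread on rank, none was called, and on the log2 scale 7 were (3.65%, against 4.92% of all regions), 3 higher and 4 lower.

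Btg3, a gene of the antiproliferative BTG and TOB family, had the clearest difference. Its domain spanned 2090 bp (chromosome 16, 78375315 to 78377404) over the CG-rich window printed above. Its percentile was 95.7 and 96.4 in the WT libraries, 92.1 and 93.5 in Bcat_KO, 80.6 and 90.4 in HOXA9_KO, and 97.9 and 98.3 in PRMT1_KO. HOXA9_KO was lowest and PRMT1_KO highest, and no groups overlapped. The difference between them was −0.99 ± 0.159 (SE, limma adjusted p = 0.00129), called under each of the 8 omissions. From WT, HOXA9_KO differed by −0.68 ± 0.159 (adjusted p = 0.0131).

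At Trps1, the gene of a GATA-type transcriptional repressor, HOXA9_KO was also the lowest group. Its domain spanned 2303 bp (chromosome 15, 50888279 to 50890581), and its percentile was 60.4 and 60.0 in the WT libraries, 67.8 and 58.0 in Bcat_KO, 42.1 and 35.2 in HOXA9_KO, and 68.6 and 80.6 in PRMT1_KO. HOXA9_KO and PRMT1_KO did not overlap with WT, on either side of it. The difference between the mutants was −0.96 ± 0.25 (SE, limma adjusted p = 0.0318). At Fzd8 the same comparison gave 1.14 ± 0.288 (adjusted p = 0.0272), with HOXA9_KO higher. Each of these calls, at Trps1 and at Fzd8, was lost under 4 of the 8 omissions.

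In HOXA9_KO against Bcat_KO limma called 0 domains, against 0.445% of all regions (0.0804% higher and 0.364% lower), and 10 had an unadjusted p under 0.05 (5.21%, against 10.5% of all regions). Both HOXA9_KO libraries lay above both Bcat_KO libraries in 30 domains (15.6%, against 20.3% of all regions) and below in 32 (16.7%, against 20.1%). With the −log10 p summed over the peaks of a region, 1 was called (0.521%, against 0.268% of all regions), and by fold enrichment 0. The domains with the smallest p were nearest to Zfp825 (difference −0.41 ± 0.112, SE, limma adjusted p = 0.106) and at Hmgb1, a chromatin protein gene (−0.61 ± 0.204, adjusted p = 0.235), in the lower direction, and Impa2, an inositol monophosphatase gene (0.88 ± 0.278, adjusted p = 0.198), in the higher.

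In PRMT1_KO against Bcat_KO limma again called 0 domains, against 0.0107% of all regions (0.00536% in each direction), with 16 at an unadjusted p under 0.05 (8.33%, against 7.91% of all regions), and none of the other settings run called any. Both PRMT1_KO libraries lay above both Bcat_KO libraries in 46 domains (24%, against 19.5% of all regions) and below in 29 (15.1%, against 19%). The smallest p values in the higher direction were at Btg3 (0.61 ± 0.159, SE, limma adjusted p = 0.261) and Impa2 (0.94 ± 0.278, adjusted p = 0.342). In the lower direction Fzd8 had a difference of −1.0 ± 0.288 (adjusted p = 0.342). Impa2 stood at 32.3 and 25.8 in Bcat_KO, 71.2 and 58.6 in PRMT1_KO and 50 and 70.3 in WT, so Bcat_KO was lowest at this domain.

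The dKO library, which had not chosen the domains, held a peak at most of them. Its list was short, with 10639 peaks, and still 147 of 192 domains had a dKO peak (76.6%, 95% Wilson interval 70.1 to 82.0), against 42.5% (41.8 to 43.2) of the narrower regions. With dKO peaks of a −log10 q of at least 5 alone, the shares were 37.5% (31.0 to 44.5) and 21.4% (20.8 to 22.0). In 4 classes of median percentile, divided at 25, 50 and 75, the share from the weakest to the strongest class was 44.1%, 66.7%, 81.2% and 94.4% for domains and 15.3%, 24.8%, 47.2% and 85.3% for narrower regions. A wide region offers more room for a peak to touch it. In 100 domains the dKO had 1 summit and in 47 at least 2. With no second library, no test was made, and a missing peak may lie below what this short list could detect. Cxcr4, Sox12 and Ifngr2 were among the domains with none.

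The identity of the cells was checked at marker genes. Of 10 LSK genes, 7 had a peak at their start in all 8 lists (Kit, Cd34, Flt3, Meis1, Hlf, Mecom and Myb), and Ly6a, which encodes Sca-1 itself, had none in any. Of 13 genes of mature lineages, 7 had no peak in any list, among them Cd3e and Ly6g, and the other 6 had a peak in at least 1 list. Of 5 stromal and endothelial genes, 2 had a peak in all 8 (Col1a1 and Col1a2). An open start does not show that a gene is transcribed.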

How the data were processed

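ATAC-seq peak lists of 9 libraries were used: 2 each of WT, Bcat_KO, HOXA9_KO and PRMT1_KO, and 1 dKO. Per the submitters' processing notes, the authors used Bowtie2 2.4.2, SAMtools 1.14, Picard 2.27.4 and MACS2 with GRCm38 (mm10). Peaks were called in each library separately, and the deposited values are not normalized between libraries. Each list gave a score per peak, the authors' fold enrichment over local background (a ratio), and the deposited −log10 p-value and −log10 q-value. The lists give no read totals, so depth was not used, and the 2 libraries per group limit the precision of each value.

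Here, peaks of the 8 paired lists sharing 1 bp were merged on autosomes. The best −log10 p per region and list was ranked over the 18667 regions present in all 8, converted to normal scores and fitted with limma 3.58.1 in R 4.3.3, with group as the only term and the prior spread modelled on mean rank (trend). The same code was tested on simulated data. Adjusted p-values are Benjamini-Hochberg over all regions. Modelling the spread on rank was the first fit made and was kept; the fit without it was added after the results were seen. Gene starts came from the RefSeq promoter table (31396 autosomal starts); for 7325 genes without an entry both gene ends were used, so an end may stand in for a start. A gene names a domain when its start is nearest. Names were chosen by rule: the 12 widest, the 10 strongest by rank, the 8 with most summits, those nearest the width threshold, up to 6 called per direction and comparison (or the 2 of smallest p), and those in the gene lists. Other names were picked after their values were seen, and the text says so for the genes of blood and Wnt biology; the weakest domains, Mir17hg and the 3 dKO examples were picked in the same way. Members, lists and tests were chosen with earlier results of these data known. Intervals for the single dKO library are 95% Wilson intervals for counting error only. Alternatives changed the rank measure, the spread model, the width, the gene window and the libraries included. Sequence of chromosome 18 and of whole domains was not used. Some results at single genes are not reported here.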

Additional observations from a re-analysis of the deposited data

Results flagged for a closer look

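HOXA9_KO and PRMT1_KO differed at 3 domains by the limma test of that difference (1.56% of domains, against 3.05% of all regions). At Btg3 the normal score was −0.99 lower in HOXA9_KO (2 of 2 libraries below both PRMT1_KO libraries, adjusted p = 0.00129). At Trps1 it was −0.96 (2 of 2 libraries below, adjusted p = 0.0318), and at Fzd8 it was 1.14 (2 of 2 libraries above, adjusted p = 0.0272). The calls at Trps1 and Fzd8 were lost under 4 of the 8 omissions of a library, and that at Btg3 under none. By fold enrichment, or without modelling the spread on rank, none of the 3 was called. No explanation was tested.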

How the results depend on the processing

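The number of domains was 1298 at a minimum width of 1500 bp, 15 at 3000 bp and 12 when each list had to hold a single peak of 2000 bp, and 160 to 187 without any 1 replicate. The share at a gene start was 92.2% with a 5 kb window, 60.0% at 3000 bp or wider, 70.8% with the starts of the table alone and 89.7% without the 8 domains far from any gene or at the ribosomal repeat, and 84.8% to 87.2% without any 1 replicate. The median number of summits, 1.5 on average over the libraries, ran from 1.43 to 1.57 without any 1 replicate. The dKO share was 37.5% with dKO peaks of a −log10 q of at least 5. Counts of called domains, in the order Bcat_KO, HOXA9_KO and PRMT1_KO against WT and HOXA9_KO against PRMT1_KO, were 7, 7, 2 and 3. They were 0, 0, 0 and 0 with ranks by fold enrichment, 18, 18, 9 and 7 on the log2 scale and 0, 3, 0 and 0 without modelling the spread on rank. With −log10 p summed over peaks, Bcat_KO against WT gave 12 (6.25%, against 2.65% of all regions) and HOXA9_KO against PRMT1_KO 6 (3.12%, against 2.56%). HOXA9_KO against Bcat_KO gave 1 (0.521%, against 0.268%). With lists shortened to the shortest, Bcat_KO against WT gave 4 of 159 domains (2.52%, against 3.65% of all regions). Without any 1 replicate the counts were 2 to 5, 2 to 7, 0 to 2 and 1 to 6, and both other comparisons between mutants stayed at 0. In the same order, 0.686% to 2.75%, 1.44% to 5.37%, 0.118% to 1.52% and 0.316% to 3.46% of all regions were called. By fold enrichment the PRMT1_KO difference nearest to Zfp825 reversed to −0.03. The causes were not tested. Replicate numbers did not pair the libraries in rank scores, whose deviations from the group means correlated by −0.00178 to 0.038 over regions between groups. Those correlations do not cover peak width or summit number. In every group replicate 2 had more summits per domain and the shorter median longest peak, and a batch shared by replicate number was not tested. With the replicate block HOXA9_KO against PRMT1_KO gave 5 domains (2.6%, against 3.29% of all regions) and the other comparisons kept their counts. The short WT lists limit which weak domains could be seen in all 8.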

Other observations

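Further histone genes lay at domains or just below the width threshold. Domains at H3c7 (2113 bp) and H2bc3 (2192 bp) on chromosome 13 had median percentiles of 84.4 and 81.6, and neither was called in a comparison. The region at H2bc6, at 1994 bp, missed the width threshold. Domains also lay at genes of chromatin and RNA proteins, chosen after their values were seen. Kmt2e (92.4), Kmt2c (79.3), Chd1 (88.4), Kat2b (71.0), Arid1b (41.3), Zmym2 (83.6) and Trim28 (72.1) gave these median percentiles over the 8 libraries, as did Hnrnpa2b1 (76.7), Wtap (76.0), Ddx6 (25.5) and Ints6 (89.9).

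Domains were spread unevenly over chromosomes as a share of the regions in all 8 lists, from 0.487% on chromosome 8 (5 domains) to 1.86% on chromosome 17 (16 domains). Only 9 of 192 domains had another within 100 kb and 22 within 1 Mb.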
